A study of Mus musculus with 4 samples.

Results

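Interferon-stimulated and RNA sensing genes were followed in mouse cardiac fibroblasts after knockdown of Nr4a3, an orphan nuclear receptor of the NR4A family. The set has 44 genes, chosen by name from the type I interferon response, the interferon-gamma GTPases and the transcription factors that serve both. Of these, 39 were among the 13192 genes listed in the count table and all 39 were tested. The 5 others, Ddx58 (also under its newer symbol Rigi), Zbp1, Oas1g, Oas3 and Mx1, are not listed, and no value is given for them.

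The cells were primary fibroblasts from wild-type mouse heart, with neonatal given as the batch and P3 in the titles, and the libraries were made at day 7 of treatment. One group carried a short hairpin RNA against Nr4a3 (shNr4a3) and the other a non-targeting hairpin (shNT), with 2 libraries each. Every library therefore carries a hairpin, an RNA that cells cut into short double-stranded pieces, and no library without one was analysed here. The hairpin's vector, promoter and sequence were not given in the sources used here. Nothing in the labels ties replicates to separate cultures, so p-values reflect the spread of these libraries alone, which could be technical.

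Cells recognise foreign or misplaced RNA through sensors such as RIG-I and MDA5, which signal through the adaptor MAVS to induce type I interferons. Type I interferons act on the receptor chains IFNAR1 and IFNAR2 and the kinases JAK1 and TYK2, and the factors activated in this way, STAT2 and IRF9 among them, bind a promoter element called ISRE. Interferon-gamma acts through another receptor and leads to binding at the element called GAS. It induces IRF1 and, strongly, the guanylate-binding proteins (GBPs) and immunity-related GTPases (IRGs), which act on membranes around intracellular pathogens. Many of these genes answer to both kinds of interferon, and fibroblasts can respond to both.

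Of the 7 GTPases, 5 passed the test as higher in shNr4a3, Irgm1, Gbp2, Gbp3, Gbp5 and Gbp7, and none was lower. Over all tested genes 27.6% were higher and 27.9% lower. Of the 28 type I genes tested, 7 were higher and 6 lower, with Isg15 the most raised and Oas2 and Parp14 the most lowered. The genes for the RNA sensors, the oligoadenylate synthetases and the transcription factors contained no gene that was higher.

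The DNA in front of these genes is shown first, because it carries the elements through which interferons are known to act. Promoter windows of 250 bases before to 50 bases after the RefSeq start on GRCm38.p6 were available for 33 of the 44 genes. The ISRE core GAAANNGAAA, searched on both strands with overlapping matches allowed, was in at least 1 window of 22 of those 33, against 3.99% of 27025 mouse genes searched the same way (3.44% of 32851 windows). The 5 windows printed are read 5′ to 3′ on the gene's strand with every base of a match in capitals. They are 3 GTPases that rose, a GTPase that did not pass the test, and the most raised type I gene.
Irgm1, chr11:48871371-48871670 (- strand): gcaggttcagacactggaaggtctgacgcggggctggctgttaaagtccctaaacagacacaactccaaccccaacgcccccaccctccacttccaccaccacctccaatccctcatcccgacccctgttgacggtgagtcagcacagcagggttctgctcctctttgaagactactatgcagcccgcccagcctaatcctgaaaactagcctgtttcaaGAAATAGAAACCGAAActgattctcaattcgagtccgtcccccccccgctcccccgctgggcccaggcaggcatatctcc
Gbp2, chr3:142620413-142620712 (+ strand): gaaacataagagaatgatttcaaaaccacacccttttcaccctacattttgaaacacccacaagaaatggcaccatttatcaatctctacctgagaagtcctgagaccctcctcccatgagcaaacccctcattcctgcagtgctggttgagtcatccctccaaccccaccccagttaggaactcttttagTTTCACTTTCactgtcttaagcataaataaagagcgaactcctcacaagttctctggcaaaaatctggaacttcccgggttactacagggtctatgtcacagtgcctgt
Gbp5, chr3:142496684-142496983 (+ strand): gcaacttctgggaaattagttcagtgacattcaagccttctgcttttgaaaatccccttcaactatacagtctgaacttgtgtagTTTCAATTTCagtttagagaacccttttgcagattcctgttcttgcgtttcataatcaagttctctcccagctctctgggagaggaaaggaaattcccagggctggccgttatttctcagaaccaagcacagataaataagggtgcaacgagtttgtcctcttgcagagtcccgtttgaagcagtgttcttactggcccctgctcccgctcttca
Igtp, chr11:58199306-58199605 (+ strand): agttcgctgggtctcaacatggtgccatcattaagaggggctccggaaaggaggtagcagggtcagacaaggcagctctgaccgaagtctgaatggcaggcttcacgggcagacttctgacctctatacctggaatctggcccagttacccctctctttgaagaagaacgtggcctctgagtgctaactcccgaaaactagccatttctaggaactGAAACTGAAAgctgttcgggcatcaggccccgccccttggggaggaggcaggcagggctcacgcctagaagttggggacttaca
Isg15, chr4:156200769-156201068 (- strand): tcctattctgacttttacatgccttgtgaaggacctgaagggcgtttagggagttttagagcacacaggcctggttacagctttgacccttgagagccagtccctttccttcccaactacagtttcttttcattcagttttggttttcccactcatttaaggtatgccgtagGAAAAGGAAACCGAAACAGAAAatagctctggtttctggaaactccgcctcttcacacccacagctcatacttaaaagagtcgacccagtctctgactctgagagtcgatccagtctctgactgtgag

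In the window of Isg15, 3 overlapping matches begin 78, 72 and 66 bases before the start. In the window of Irgm1, 2 overlapping matches begin 30 and 24 bases before the start. Single matches begin 59 bases before the start of Gbp2 and 165 bases before that of Gbp5. The window of Igtp has a match that begins 34 bases before its start, although Igtp did not pass the test. All 6 GTPases with a window had the core, as did 15 of 23 type I genes and 1 of the 4 transcription factor genes.

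Among genes with a window, the core was present for 9 of 11 that were higher, 1 of 4 that were lower and 9 of 15 that did not pass. The lowered genes Oas2, Parp14, Usp18 and Dhx58 had no window, so the share among lowered genes leaves out the most lowered. The shorter GAS element TTCNNNGAA, a palindrome, was in 10 of the 33 genes, against 9.55% of all genes, and in 3 of the 6 GTPases, Gbp5, Gbp7 and Igtp. A match is a description of letters in the window. Binding of any factor was not measured.

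All values below come from read counts per gene. Totals were 34068241 and 35111013 for the shNT libraries and 34246969 and 34813598 for the shNr4a3 libraries, so raw counts can be read side by side, within TMM factors of 0.957 to 1.042. Changes are log2 fold changes of shNr4a3 over shNT with their standard error (SE), from edgeR's quasi-likelihood test with Benjamini-Hochberg adjustment over 13160 genes, and a gene passed at an adjusted p under 0.05. This threshold was passed by 55.5% of all genes, 27.6% higher and 27.9% lower, so passing it does not set a gene apart in these libraries. With 2 libraries a group, an exact permutation test of a single gene could not pass, and the p-values rest on the spread shared across genes.

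The targeted gene went with the labels. Nr4a3 was counted 60 and 29 times with shNT and 4 and 8 times with shNr4a3. Both shNr4a3 libraries lay below both shNT libraries, at a log2 fold change of -2.98 ± 0.67 (SE, n = 2 per group; edgeR adjusted p = 3.22e-04).

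Cell type markers were read before the interferon genes. All 10 fibroblast markers are listed, with 4 higher and 5 lower and a summed level of 12980 and 12470 normalised CPM (counts scaled to library size) in shNT and 7384 and 7477 in shNr4a3. Most of that sum is Col1a1, Vim and Col1a2, all lower, while the 4 higher were Col3a1, Dcn, Lum and Pdgfra. All 10 mesothelial and epicardial markers were lower, with 676.4 and 648.9 normalised CPM in shNT and 128.5 and 131.5 in shNr4a3, and 7 of 9 endothelial markers were lower, with 361.2 and 345.1 against 181.2 and 173.8. Within the endothelial sum, Flt1 did not pass and averaged 113.7 normalised CPM in shNT and 115.1 in shNr4a3. Of 14 macrophage and leukocyte markers, from cells that express interferon-stimulated genes strongly, 8 are not listed (Adgre1, C1qa, C1qb, C1qc, Fcer1g, Tyrobp, Mrc1 and Itgam). Of the 5 tested, Lyz2 was higher at 1.12 ± 0.08 and 3 were lower. Lyz2 alone came to 40.3 and 42.2 normalised CPM in shNT and 90.9 and 87.8 in shNr4a3, while the 4 others summed to 20.2 and 18.4 in shNT and 8.86 and 11.3 in shNr4a3. Of 5 mural markers tested, 1 was higher and 3 lower, with a sum of 604.6 and 536.5 normalised CPM in shNT and 307.5 and 311.5 in shNr4a3. Of 5 cardiomyocyte markers tested, only Tnnt2 passed, as lower at -1.07 ± 0.05, and it made up most of that list's level. In bulk libraries fewer cells of a type and less RNA per cell cannot be told apart, and the part of these markers in the changes below was not tested.

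Of the 39 genes, 12 were higher, 8 were lower and 19 did not pass, with a median log2 fold change of 0.18 beside 0.004 for all tested genes. These shares, 12 and 8 of 39, lie near the 27.6% and 27.9% of all genes. Both shNr4a3 libraries were above both shNT libraries for 20 of the genes, below for 10 and overlapping for 9, where 38.9% and 38.3% of all genes lay above and below. Against a minimum log2 fold change of 0.5, 5 of the 39 were higher and 3 lower, where 5.7% and 10.3% of all genes were. At a log2 fold change of at least 1, 4 of the 39 were higher, Gbp2, Gbp3, Gbp5 and Irgm1, where 3.39% of all genes were.

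**Figure D1:**
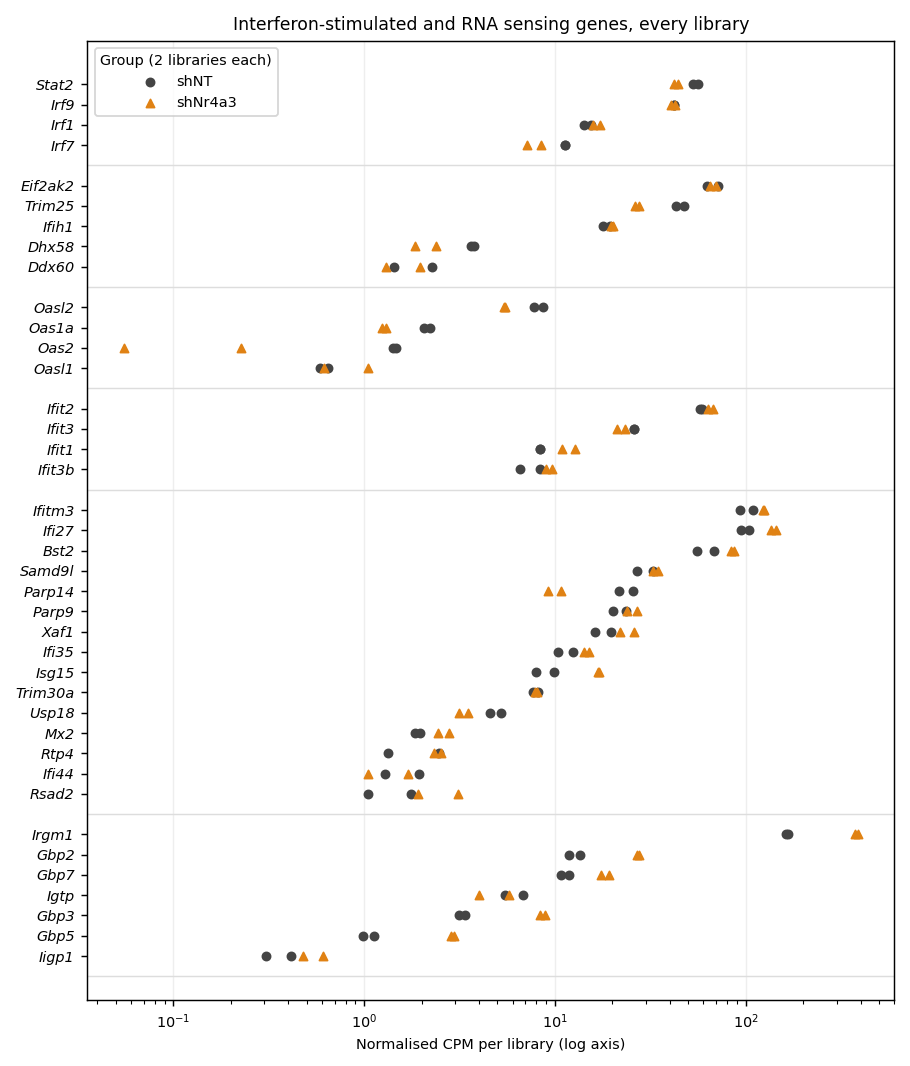
Normalised CPM (log axis) of the 39 tested genes in each of the 4 libraries, grouped by role from transcription factors at the top to interferon-gamma GTPases at the bottom. Dark circles are the 2 shNT libraries and orange triangles the 2 shNr4a3 libraries; the triangles of Irgm1, at 372.9 and 386.6 CPM, are far right of its circles, and those of Oas2 far left.

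Levels in shNT spanned a wide range. Per kilobase of exon, Ifitm3, which encodes a membrane protein that blocks virus entry, was the most abundant at 149.7 ± 16.0 normalised CPM per kb (SD, n = 2). Bst2, which encodes tetherin, followed at 68.8 ± 10.0 and Ifi27, a mitochondrial interferon-induced gene, at 67.9 ± 4.8 normalised CPM per kb, and these 2 do not differ beyond their spread. Irgm1 was next at 28.5 ± 0.56 and reached 65.4 ± 1.7 normalised CPM per kb in shNr4a3. The lowest were Gbp5 at 0.16 ± 0.015 and Iigp1 at 0.062 ± 0.013 normalised CPM per kb. The labels name no added interferon in either group.

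The interferon-gamma GTPases had a median log2 fold change of 1.10, the farthest from 0 of the 6 role groups, and 6 of the 7 had both shNr4a3 libraries above both shNT libraries. Irgm1, which encodes a regulatory IRG protein, was counted 5463 and 5529 times with shNT and 13255 and 14023 times with shNr4a3. The groups are far apart and the replicates close together. The level was 2.30-fold higher, a log2 fold change of 1.20 ± 0.06 (SE; edgeR adjusted p = 8.37e-18).

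Gbp2, a guanylate-binding protein of the interferon-gamma response, was counted 386 and 458 times with shNT and 976 and 971 times with shNr4a3. Gbp3 was counted 102 and 115 times with shNT and 297 and 320 times with shNr4a3. Gbp5, known in mice for its part in inflammasome responses, was counted 32 and 38 times with shNT and 105 and 104 times with shNr4a3. In all 3 the shNr4a3 libraries lay far above the shNT libraries, with close replicates. The log2 fold changes were 1.10 ± 0.12 for Gbp2, 1.40 ± 0.20 for Gbp3 and 1.47 ± 0.35 for Gbp5, with edgeR adjusted p of 2.24e-09, 6.28e-07 and 7.67e-04.

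Gbp7 changed less. It was counted 349 and 401 times with shNT and 685 and 629 times with shNr4a3, a log2 fold change of 0.70 ± 0.13 (SE; edgeR adjusted p = 4.01e-05). Of its 100-base exon windows, 10.0% also occur in the neighbouring annotated gene Gm43802, so its reads may be split between them.

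The 2 other GTPases did not pass. Igtp, which encodes the IRG protein Irgm3, was counted 221 and 185 times with shNT and 204 and 145 times with shNr4a3, so the groups overlap, at -0.33 ± 0.22 (edgeR adjusted p = 0.200). Igtp shares 5.2% of its 100-base windows with its neighbour Irgm2. Iigp1, an effector IRG protein, was counted 10 and 14 times with shNT and 17 and 22 times with shNr4a3. Its shNr4a3 libraries were above its shNT libraries, at 0.59 ± 0.68 (edgeR adjusted p = 0.483), and a change of this size was not detectable at this depth.

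A wider list of 13 other interferon-inducible GTPases had 8 tested members, of which 1 was higher and 1 lower, with a median of -0.26. Over all tested genes the shares were 27.6% and 27.9%. Gbp2b, counted 8 and 8 times with shNT and 29 and 28 times with shNr4a3, was higher at 1.71 ± 0.67 (edgeR adjusted p = 0.0312). Its call was lost in DESeq2 (adjusted p = 0.0715) and when any 1 library was left out. Ifi47, an IRG gene counted 1033 and 1120 times with shNT and 832 and 893 times with shNr4a3, was lower at -0.43 ± 0.10 (edgeR adjusted p = 4.41e-04).

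Arranged by position on GRCm38, a grouping chosen after the values were seen, the higher GBP genes are neighbours. Gbp5, Gbp7, Gbp3, Gbp2b and Gbp2 lie in this order on the plus strand of chromosome 3 between 142493978 and 142638008, and all 5 were higher. On chromosome 5, Gbp9 at -0.36 ± 0.35 and Gbp4 at -0.62 ± 0.66 did not pass, and Gbp4 was at 0.68 without shNT replicate 1. Among the IRG genes of chromosome 11, Irgm1 (48861968 to 48871683, minus strand) was higher and Ifi47 was lower. Tgtp1 at -0.64 ± 0.61, Tgtp2 at -0.16 ± 0.34, Igtp and Irgm2 at -0.12 ± 0.13 did not pass. Tgtp1 and Tgtp2 are near copies, with 73.1% and 76.8% of their 100-base windows shared, and their separate values are uncertain.

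**Figure D2:**
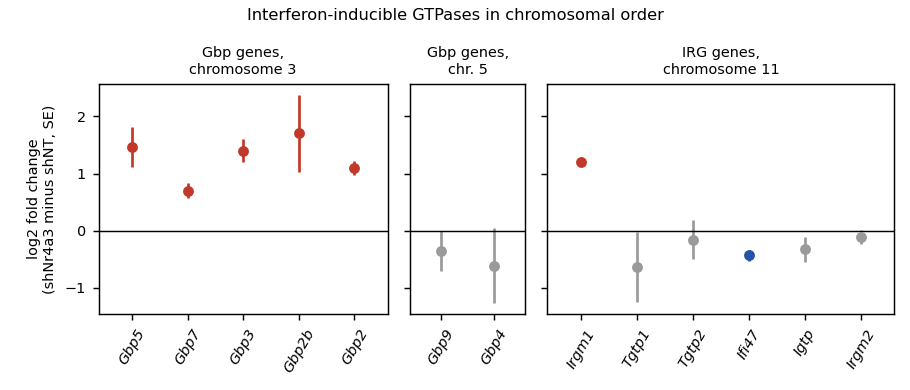
Log2 fold change (shNr4a3 minus shNT, bars are SE from edgeR) of the listed GBP and IRG genes in chromosomal order, red for higher, blue for lower and grey for not past the test. The 5 GBP genes of chromosome 3 sit between 0.70 and 1.71, while on chromosome 11 Irgm1 at 1.20 stands apart from 5 other IRG genes between -0.64 and -0.12.

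The type I effectors moved in both directions. Leaving out sensors, synthetases and IFIT genes, 15 of 16 effectors were tested, with 6 higher, 2 lower and a median log2 fold change of 0.36. Isg15, a ubiquitin-like protein that is attached to other proteins, was counted 259 and 336 times with shNT and 598 and 616 times with shNr4a3. Its groups do not overlap, and the level was 1.89-fold higher, a log2 fold change of 0.92 ± 0.14 (edgeR adjusted p = 2.41e-06).

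Ifi27 was counted 3085 and 3549 times with shNT and 4812 and 5221 times with shNr4a3, a log2 fold change of 0.49. Bst2 was counted 1817 and 2325 times with shNT and 3083 and 3056 times with shNr4a3, at 0.46. Ifitm3 was counted 3059 and 3703 times with shNT and 4461 and 4485 times with shNr4a3, at 0.30. All 3 are abundant, none has overlapping groups, and shNT replicate 1 was the lowest library for each. The edgeR adjusted p-values were 2.87e-07 for Ifi27, 1.90e-05 for Bst2 and 6.74e-04 for Ifitm3.

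Exon length moves with some of these changes. Isg15, Bst2 and Ifitm3 have 756, 903 and 678 exon bases in GENCODE M21, and the 281 tested genes of at most 1000 exon bases had a median log2 fold change of 0.34, with 38.8% higher and 9.61% lower. The same short genes also differed between the shNT libraries, with a median log2 difference of 0.16 (replicate 2 minus replicate 1). In a fit with an exon length correction, added after seeing the data, Ifitm3 was at -0.01 and no longer passed, and the call of Ifi35 at 0.26 was lost. Isg15 at 0.65, Ifi27 at 0.35 and Bst2 at 0.23 kept their calls. The GTPases are longer, with 2022 to 6637 exon bases, and those that passed moved little.

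**Figure D3:**
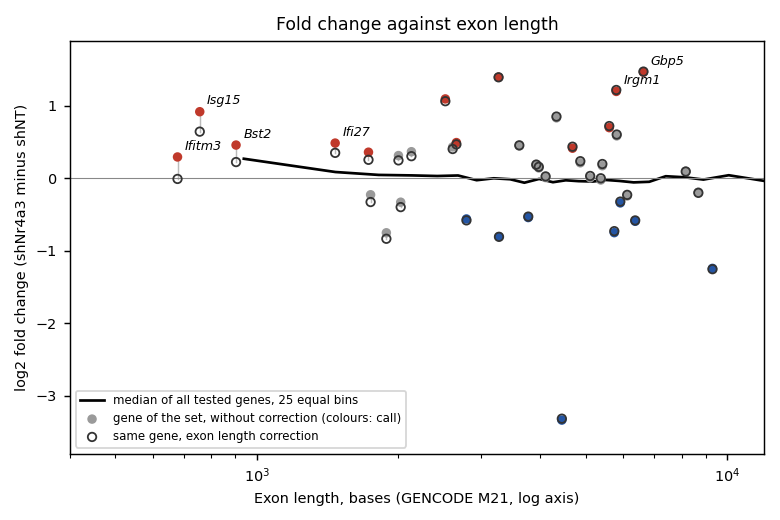
Log2 fold change (shNr4a3 minus shNT) of the tested genes of the set against exon length in bases (log axis). Filled points are values without correction (red higher, blue lower, grey not past the test), open circles the same gene with an exon length correction, and the line is the median of all tested genes in bins of equal gene number; the line rises toward short genes, where Isg15 moves from 0.92 to 0.65 and Ifitm3 from 0.30 to -0.01.

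Xaf1, a pro-apoptotic interferon-induced gene, was counted 527 and 667 times with shNT and 780 and 939 times with shNr4a3, at 0.42 (edgeR adjusted p = 0.00415). Its call was lost without shNr4a3 replicate 2. Ifi35 was counted 406 and 352 times with shNT and 503 and 550 times with shNr4a3, at 0.36 (edgeR adjusted p = 0.0298). The groups of both do not overlap, but the call of Ifi35 was lost in DESeq2 and in 3 of the 4 fits that left out a library, all but the one without shNT replicate 1. On the opposite strand, 16.8% of the exon bases of Ifi35 overlap another gene, and it is not stated whether counting used strand.

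Rsad2, which encodes the antiviral enzyme viperin, was counted 34 and 60 times with shNT and 68 and 113 times with shNr4a3. The groups do not overlap, but the replicates differ widely, and at 0.84 ± 0.37 it did not pass (edgeR adjusted p = 0.0557). It passed in 4 of 14 alternative fits. Mx2 at 0.45, Rtp4 at 0.37, Parp9 at 0.21, Samd9l at 0.17, Trim30a at 0.01 and Ifi44 at -0.24 (log2 fold changes) also did not pass.

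Parp14 and Usp18 were the lowered effectors. Parp14, an ADP-ribosyltransferase of the PARP family, was counted 832 and 733 times with shNT and 326 and 389 times with shNr4a3. The shNr4a3 libraries lay at 0.422 of the shNT level, a log2 fold change of -1.24 ± 0.13 (edgeR adjusted p = 1.71e-09). The related gene Parp9 lies near it on chromosome 16 and was counted 765 and 687 times with shNT and 848 and 974 times with shNr4a3, at 0.21 ± 0.11 (edgeR adjusted p = 0.100).

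Usp18, which removes ISG15 from proteins and dampens type I interferon receptor signalling, was counted 171 and 154 times with shNT and 124 and 114 times with shNr4a3. Both shNr4a3 libraries were lower, at -0.56 ± 0.23 (edgeR adjusted p = 0.0422), but the call was lost in 7 of 14 alternative fits, DESeq2 and limma-voom among them. Isg15 and the gene for its protease thus had opposite signs in the same libraries.

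**Figure D4:**
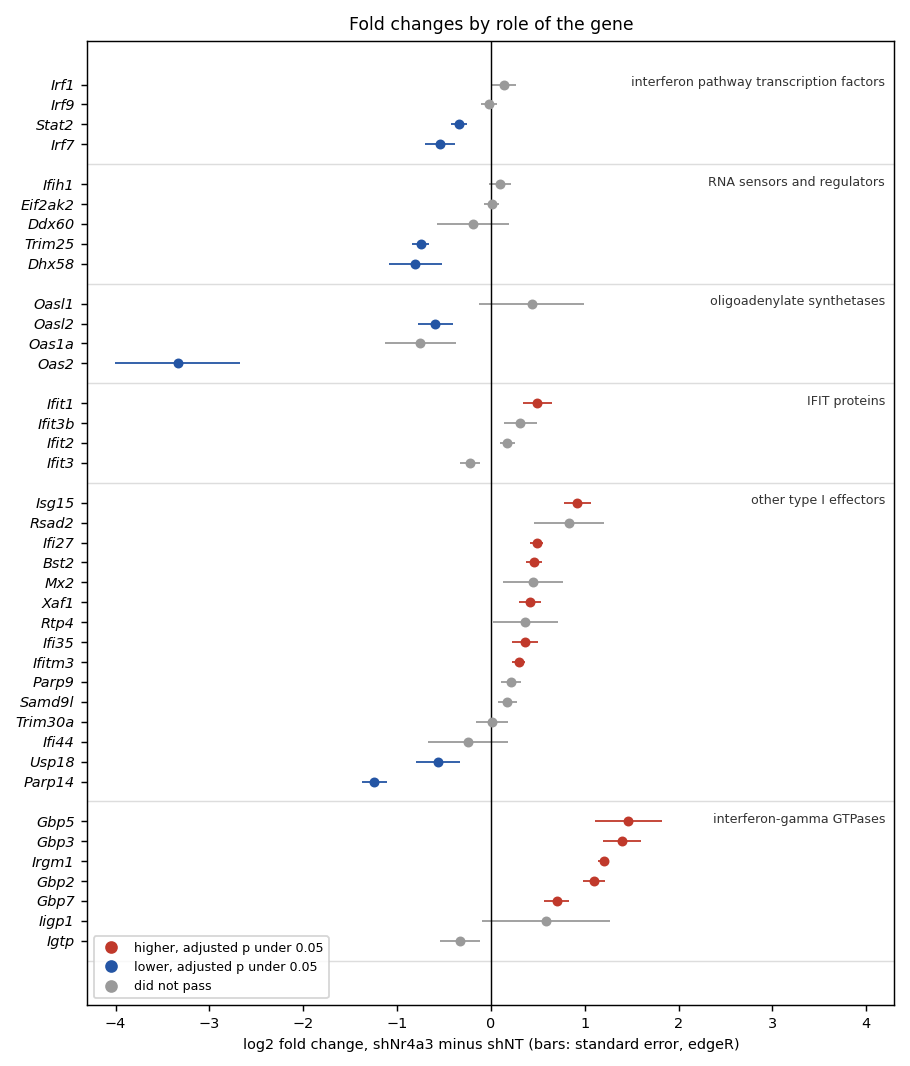
Log2 fold change (shNr4a3 minus shNT) with its SE from edgeR for each tested gene of the set, in blocks by role, red for higher, blue for lower and grey for not past the test. Red points fill the top of the GTPase block, up to 1.47 for Gbp5, while the blocks of transcription factors, RNA sensors and oligoadenylate synthetases hold blue and grey points only, down to -3.34 for Oas2.

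The IFIT genes, whose proteins bind foreign RNA, lie together on chromosome 19 and changed little. Ifit1 was counted 272 and 284 times with shNT and 452 and 393 times with shNr4a3, at 0.49 ± 0.16 (edgeR adjusted p = 0.00826), and lost its call without shNr4a3 replicate 1. Ifit2 was counted 1876 and 1994 times with shNT and 2402 and 2315 times with shNr4a3, with no overlap, at 0.18 ± 0.08 (edgeR adjusted p = 0.0512). It did not pass, although it did in 4 of 14 alternative fits.

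Ifit3 was counted 844 and 885 times with shNT and 752 and 844 times with shNr4a3, at -0.23 ± 0.11 (edgeR adjusted p = 0.0694). Its near copy Ifit3b was counted 213 and 284 times with shNT and 342 and 324 times with shNr4a3, at 0.31 ± 0.17 (edgeR adjusted p = 0.124). Of their 100-base windows 31.7% and 27.4% are shared with each other, so reads could have been assigned to either and their opposite signs are uncertain. Each passed in 2 alternative fits.

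The oligoadenylate synthetases, whose products activate the antiviral nuclease RNase L, had 4 of 6 genes listed, with 2 lower, none higher and a median of -0.67. Oas2 was counted 46 and 50 times with shNT and 8 and 2 times with shNr4a3. It was the most lowered gene of the set, at -3.34 ± 0.67 (edgeR adjusted p = 8.74e-05), a value that rests on 10 counts in shNr4a3. Leaving out a library moved it between -4.62, without shNr4a3 replicate 1, and -2.66, without shNr4a3 replicate 2.

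Oasl2, an OAS-like gene, was counted 252 and 292 times with shNT and 194 and 195 times with shNr4a3, at -0.59 ± 0.185 (edgeR adjusted p = 0.00725), and lost its call without shNr4a3 replicate 2. Oas1a was counted 72 and 70 times with shNT and 46 and 45 times with shNr4a3. Its groups do not overlap, but at -0.75 ± 0.38 it did not pass (edgeR adjusted p = 0.0945), and 40.9% of its 100-base windows are shared with the unlisted Oas1g. Oasl1 was counted 21 and 20 times with shNT and 22 and 38 times with shNr4a3, at 0.43, and did not pass.

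Among the RNA sensors and their regulators, 5 of 7 genes were tested, with 2 lower, none higher and a median of -0.19. Trim25, a ubiquitin ligase known as an activator of RIG-I, was counted 1541 and 1456 times with shNT and 931 and 995 times with shNr4a3. Its groups are well apart, at -0.75 ± 0.09 (edgeR adjusted p = 3.38e-08). Dhx58, which encodes the RIG-I-like receptor LGP2, was counted 123 and 123 times with shNT and 66 and 86 times with shNr4a3. It was lower at -0.81 ± 0.28 (edgeR adjusted p = 0.0166), and the call was lost without shNT replicate 1 or shNr4a3 replicate 1.

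Ifih1, the gene of the long double-stranded RNA sensor MDA5, was counted 586 and 656 times with shNT and 701 and 734 times with shNr4a3, at 0.10 ± 0.12 (edgeR adjusted p = 0.488). Eif2ak2, the gene of the RNA-activated kinase PKR, was counted 2044 and 2429 times with shNT and 2494 and 2357 times with shNr4a3, at 0.01 ± 0.08 (edgeR adjusted p = 0.936). Ddx60 was counted 47 and 77 times with shNT and 46 and 71 times with shNr4a3, with groups that overlap. The shNr4a3 libraries of Ifih1 lay just above its shNT libraries after scaling, the groups of Eif2ak2 overlap, and none of these 3 genes passed.

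The transcription factor genes were lower or did not pass. Irf7, the factor that amplifies type I interferon production, was counted 370 and 384 times with shNT and 301 and 258 times with shNr4a3, at -0.54 ± 0.16 (edgeR adjusted p = 0.00500), with the call lost without shNr4a3 replicate 2. Stat2 was counted 1729 and 1899 times with shNT and 1496 and 1600 times with shNr4a3, at -0.34 ± 0.08 (edgeR adjusted p = 7.94e-04). Irf9 was counted 1370 and 1433 times with shNT and 1513 and 1465 times with shNr4a3, at -0.02. Irf1, the interferon-gamma-induced factor, was counted 507 and 483 times with shNT and 610 and 571 times with shNr4a3, with groups that do not overlap, at 0.14 ± 0.13 (edgeR adjusted p = 0.352).

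The rest of the pathway was read from 6 lists of 137 genes, of which 115 were tested, 20 higher and 35 lower. Over all tested genes 27.6% were higher and 27.9% lower, and no list was tested as a set. No interferon gene on the list (Ifnb1, Ifna2, Ifna4, Ifne, Ifng, Ifnl2, Ifnl3) is listed in the count table. Of the receptor genes, Ifnar1 was counted 4117 and 3888 times with shNT and 3011 and 3013 times with shNr4a3, at -0.52 ± 0.07 (edgeR adjusted p = 1.23e-07), and Il10rb was lower at -0.39 ± 0.10. Ifnar2 at -0.16 ± 0.10, Ifngr1 at 0.04 ± 0.08, Ifngr2 at 0.03 ± 0.06 and Ifnlr1 at 0.50 ± 0.27 did not pass.

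Of 12 JAK-STAT genes, 3 were lower and none higher, where 27.9% and 27.6% of all tested genes were. Tyk2, the kinase bound to IFNAR1, was counted 1677 and 1651 times with shNT and 908 and 867 times with shNr4a3, at -1.02 ± 0.09 (edgeR adjusted p = 4.14e-11). Stat3 was lower at -0.57 ± 0.06 and Jak1, the kinase shared by all these receptors, at -0.39 ± 0.06.

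Among 26 tested adaptors, kinases and IRF genes of the sensing pathways, 5 were higher and 14 lower. The shares over all tested genes were 27.6% and 27.9%, for this list and the next. Mavs was higher at 0.32 ± 0.08 and Traf3, a ubiquitin ligase downstream of it, at 0.69 ± 0.08. Irf3 was lower at -0.36 ± 0.08, Unc93b1, which carries nucleic-acid-sensing Toll-like receptors to endosomes, at -1.08 ± 0.11, Nlrx1 at -1.05 ± 0.16 and the zinc-finger antiviral gene Zc3hav1 at -0.65 ± 0.08. Of 10 tested DNA sensing genes, 2 were higher, Ifi204 at 0.67 ± 0.12 and Samhd1 at 0.56 ± 0.07, and 2 were lower, Ifi203 at -1.02 ± 0.24 and Rnaseh2c at -0.47 ± 0.16. Cgas at 0.32 ± 0.19 and Sting1 at -0.24 ± 0.12 did not pass.

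Of 53 other interferon-stimulated genes tested, 12 were higher and 13 lower, with a median of -0.02. These counts do not exceed the shares over all tested genes, 27.6% higher and 27.9% lower. Ccl2, a monocyte-attracting chemokine, was lower, counted 1605 and 1685 times with shNT and 700 and 699 times with shNr4a3, at -1.34 ± 0.09 (edgeR adjusted p = 1.04e-13). Slfn9 at -1.81 ± 0.22 and Plscr1 at -0.74 ± 0.11 were also lower, and Lgals9 was higher at 0.71 ± 0.07.

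The 33 type I genes and the 7 GTPases can be set side by side. Summed over the tested genes, the type I genes came to 619.8 and 670.6 normalised CPM in shNT and 726.2 and 732.1 in shNr4a3. The rise in that sum lies largely in Ifitm3, Ifi27 and Bst2. Their mean levels were 101.5, 99.62 and 62.14 normalised CPM in shNT and 124.6, 139.6 and 85.49 in shNr4a3. The mean log2 level of the 28 type I genes was 3.233 and 3.312 in shNT and 3.196 and 3.21 in shNr4a3. This mean includes Oas2, at a log2 fold change of -3.34. The GTPases came to 201.3 and 198.7 normalised CPM in shNT and 437.1 and 447.0 in shNr4a3, and most of that is Irgm1. The median log2 fold change was 0.18 over the 28 type I genes, from -3.34 to 0.92, and 1.10 over the 7 GTPases, from -0.33 to 1.47, and the difference between the groups was not tested.

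In the authors' deposited table, whose p-values match a test against a minimum log2 change of 0.5 in size, 3 of the 39 genes were higher at an adjusted p under 0.05, Gbp2, Gbp3 and Irgm1. The authors' deposited table has 2 of the 39 lower, Oas2 and Parp14. Over all genes listed in the authors' deposited table, 3.31% were higher and 7.35% lower by that rule.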

How the data were processed

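RNA was measured in 4 libraries of mouse cardiac fibroblasts at day 7, and library titles gave the groups. Per the labels' protocols, RNA was depleted of ribosomal RNA, prepared with a stranded kit and sequenced as paired ends; the molecule is labelled polyA RNA. Trimmomatic 0.36, featureCounts, Subread 1.5.1, SAMtools and mm10 are named in the submitters' processing notes, with the aligner and strand setting not given in the sources used here.

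Raw counts per gene, whole numbers, were deposited. The deposited table lists no gene with a mean count under 10.25, so a low gene can be missing from it. The authors' FPKM values were not used for levels: the gene lengths they contain, whole numbers within 0.01 bases, have a Spearman correlation of -0.006 with GENCODE M21 exon lengths over 12689 genes (96.2% of symbols matched), and 8.4% lie within 10% of them. Levels per kb use the GENCODE lengths. The authors' deposited log2 fold change, their standard error and test statistic, which are scores, and their p-values belong to their own comparison. That p-value was recomputed, to within 6.7e-16, by a normal test of the deposited change against a size of 0.5. A mean signal for each gene, also deposited, was left aside.

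Counts were tested with edgeR 4.0.16 in R 4.3.3 (robust quasi-likelihood F test, group as the only term, TMM factors, default filterByExpr, which removed 32 genes and left 13160), adjusted by Benjamini-Hochberg at 0.05. The SE is the size of the log2 fold change over the square root of F. The common biological coefficient of variation was 6.57%. The test was tried on simulated counts made from these libraries, with the same spread for every gene and low-count genes left out. Those simulations therefore do not speak for genes with few counts or a wide spread. The members and all lists were chosen with earlier results of these data known, so no list was tested and no p adjusted over a list alone. Each list names up to 4 genes of smallest p, fixed pathway genes, and members whose call changed. Of the genes this rule names, 1 is not reported here. Genes named outside this rule, such as the neighbours in the GBP and IRG clusters, were chosen after their values were seen. Alternatives were 3 other scalings, DESeq2 1.42.0, limma-voom (limma 3.58.1), a minimum fold, 2 other filters, the replicate block, each library left out and an exon length correction.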

Additional observations from a re-analysis of the deposited data

How the results depend on the processing

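Of the 20 genes of the set that passed, 8 kept their call in all 14 alternatives and 12 in all but the test against a minimum log2 fold change of 0.5; Oas2 was not tested under the stricter filter. With that minimum, 2101 instead of 7309 genes passed, with 5 higher and 3 lower in the set instead of 12 and 8. Leaving out a library gave 10 to 15 higher and 5 to 8 lower, 5 without shNr4a3 replicate 2, and put the type I median between 0.100 and 0.166 and the GTPase median between 1.008 and 1.183. Library totals alone shifted the median of all genes by 0.11, with 4702 genes higher and 2837 lower instead of 3635 and 3674, and gave medians of 0.288 and 1.209. Of the 19 that did not pass, 6 passed in at least 1 alternative.

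Signs reversed for several values, with no call in any but Ifitm3, which was at -0.008 with the exon length correction; the cause was not tested. Irf9 was at 0.090 with library totals and 0.001 with the exon length correction, and Eif2ak2 at -0.006 and Trim30a at -0.004 with the stricter filter. Over the fits that left out a library, Irf9 ran from -0.060 to 0.015, Ddx60 from -0.520 to 0.177, Eif2ak2 from -0.082 to 0.110, Ifi44 from -0.625 to 0.087, Rtp4 from -0.008 to 0.877, Trim30a from -0.031 to 0.060, Gbp4 from -1.293 to 0.677, Ifngr1 from -0.073 to 0.146 and Ifngr2 from -0.032 to 0.097.

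Deviations of same-numbered libraries correlated at -0.04 across genes, so no pairing by replicate number was seen. With a single replicate difference per group, this value cannot settle whether same-numbered libraries share a culture or day. A fit with the replicate block called 3552 genes higher and 3599 lower, and 12 and 8 in the set. Depth limits genes with few counts, such as Iigp1, Oasl1 and Ddx60.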

Other observations

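A pair of interferon-inducible chemokine genes had large changes but unlike shNT libraries. Cxcl10 was counted 2 and 24 times with shNT and 88 and 66 times with shNr4a3, at a log2 fold change of 2.46 ± 0.59 (SE; edgeR adjusted p = 9.11e-04). Ccl5 was counted 0 and 11 times with shNT and 63 and 66 times with shNr4a3, at 3.42 ± 0.68 (edgeR adjusted p = 8.81e-05). Both shNr4a3 libraries were above both shNT libraries for each, but the calls were lost in DESeq2, with adjusted p of 0.121 and 0.155. Without shNT replicate 1 the values were 1.60 and 2.46, and without shNT replicate 2 Cxcl10 was at 5.05 while Ccl5 had no shNT count left to give a fold against. In the same shNT libraries the leukocyte gene Ptprc had 8 and 36 counts, with 6 and 6 in shNr4a3, and it was not tested. Replicate 2 was thus the higher shNT library for all 3 genes, while the tested leukocyte markers were mixed, and their part in these changes was not tested. Of the 5 tested, 3 were higher in shNT replicate 2. These were Lyz2 at 1313 and 1430 counts with shNT, Csf1r at 190 and 208 and Cd14 at 134 and 163. Cd68, at 289 and 227 counts with shNT, and Laptm5, at 46 and 26, were higher in shNT replicate 1.

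Ifit1bl1, an Ifit1-like gene of the same cluster on chromosome 19, was counted 36 and 14 times with shNT and 0 and 1 times with shNr4a3 (edgeR adjusted p = 2.39e-04), the opposite direction to Ifit1. These genes were chosen after their values were seen.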
